A study of Homo sapiens with 4 samples.

Results

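The expression of 10 genes that mark or govern the plasma cell state was followed in EJM cells, a long-established human myeloma line, over 4 days of induction of an IκBα super-repressor. Myeloma arises from the plasma cells of the bone marrow, which secrete antibody. The super-repressor is a form of IκBα that resists breakdown and so keeps NF-κB transcription factors in the cytoplasm. The genes were JCHAIN, CD38, SDC1 and CD79A (surface and secretory proteins), PRDM1, XBP1, IRF4, POU2AF1 and ELL2 (regulators), and the kinase PIM2. They were found by gene symbol in the probe annotation, which gave 30 of the 15246 probes of the array and 10 of the 9681 features left once probes of a gene were averaged. Induced cells received doxycycline at 20 µg/ml for 1, 2, 3 or 4 days and were labelled with Cy5, with 1 array per day. Uninduced cells carried the same transgene under the tetracycline repressor and were labelled with Cy3 on every array. Cells without the transgene that were given doxycycline were not analysed here, and the labels do not say whether the line was a single clone.

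Each deposited value compares the 2 dyes of an array as a log ratio, read here as log2 of induced over uninduced cells. The direction comes from the dye labels alone. Were the authors' ratio the other way up, all signs below would flip, higher and lower would change places, and high ranks would become low ones. CD38 would then have the percentiles 8.4, 4.8, 1.5 and 2.4 on days 1 to 4, and JCHAIN the lowest mean of the 10 genes. The log base is not stated: a largest value of 7.255 would exceed a scanner's range as a log10, and folds below assume base 2, while the natural log is possible too. Array medians lay between -0.068 and 0.004. The day 1 and day 2 arrays were more widely spread (SD over probes 0.517 and 0.569) than those of days 3 and 4 (0.345 and 0.380), and the correlation between arrays over probes ran from 0.02 (days 1 and 4) to 0.57 (days 3 and 4). Probes with a value numbered from 10321 (day 2) to 13872 (day 4). NFKBIA, the gene the transgene derives from, had a mean of -0.14 ± 0.07 (SD, 4 arrays; limma adjusted p = 0.61), and whether its probes detect the transgene is not known here. TNFAIP3, an NF-κB target, had a mean of -1.47 ± 0.28 (limma adjusted p = 0.0178). A ratio holds no expression level, so the presence of plasma cell markers in EJM could not be checked against its label.

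When a B cell becomes a plasma cell, it turns from sensing antigen to secreting antibody. IRF4 and PRDM1 (which encodes Blimp-1, a repressor that silences B cell genes) impose the new state, and XBP1 enlarges the endoplasmic reticulum to carry the load of antibody. Myeloma cells keep most of this program and commonly depend on IRF4. NF-κB signalling is active in many myelomas, and the comparison of induced with uninduced cells asks how expression changes once it is blocked.

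Promoters are shown for the genes whose values the results turn on: JCHAIN, CD38 and SDC1, which were above 0 on all 4 arrays, PRDM1 and XBP1, whose values were highest on days 1 and 2, and PIM2. Each is the 250 bases before the annotated start in RefSeq (GRCh38.p14), 5′ to 3′ on the gene's strand, and 8 of the 10 genes were matched. Capitals mark matches on either strand to 4 motifs. These were GGG and CC with 5 bases of any kind between them (a loose form of the NF-κB site), ATGCAAAT (the octamer at which POU2AF1 acts as a coactivator), GAAA followed by GAAA with 2 bases of any kind between them (an interferon-response-like pair) and TGACGTG (a core of the unfolded protein response element).
JCHAIN (chr4:70666509-70666758, reverse strand): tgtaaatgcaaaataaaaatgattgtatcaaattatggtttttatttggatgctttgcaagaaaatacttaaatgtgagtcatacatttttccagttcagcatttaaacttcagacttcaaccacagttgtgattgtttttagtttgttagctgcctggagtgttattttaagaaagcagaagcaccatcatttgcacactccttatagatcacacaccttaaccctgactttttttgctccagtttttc
CD38 (chr4:15778078-15778327, forward strand): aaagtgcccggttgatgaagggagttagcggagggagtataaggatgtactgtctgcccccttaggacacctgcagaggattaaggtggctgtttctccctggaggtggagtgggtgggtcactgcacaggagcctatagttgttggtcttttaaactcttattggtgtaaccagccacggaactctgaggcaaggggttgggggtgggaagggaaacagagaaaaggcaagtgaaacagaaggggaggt
SDC1 (chr2:20225476-20225725, reverse strand): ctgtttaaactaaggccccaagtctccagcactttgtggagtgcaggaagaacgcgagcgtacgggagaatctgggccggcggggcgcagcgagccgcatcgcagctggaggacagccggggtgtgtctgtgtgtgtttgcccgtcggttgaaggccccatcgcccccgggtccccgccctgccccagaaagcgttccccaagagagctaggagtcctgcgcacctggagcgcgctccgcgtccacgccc
PRDM1 (chr6:106086086-106086335, forward strand): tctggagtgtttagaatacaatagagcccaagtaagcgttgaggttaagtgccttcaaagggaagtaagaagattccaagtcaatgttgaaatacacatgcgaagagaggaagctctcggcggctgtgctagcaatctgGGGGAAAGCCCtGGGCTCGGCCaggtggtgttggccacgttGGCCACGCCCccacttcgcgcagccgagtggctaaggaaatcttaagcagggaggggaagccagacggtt
XBP1 (chr22:28800570-28800819, reverse strand): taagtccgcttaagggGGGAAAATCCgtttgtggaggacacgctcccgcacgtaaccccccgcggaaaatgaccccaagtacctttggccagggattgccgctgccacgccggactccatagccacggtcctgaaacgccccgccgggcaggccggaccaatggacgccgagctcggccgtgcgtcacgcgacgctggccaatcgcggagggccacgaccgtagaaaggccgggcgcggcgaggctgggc
PIM2 (chrX:48919025-48919274, reverse strand): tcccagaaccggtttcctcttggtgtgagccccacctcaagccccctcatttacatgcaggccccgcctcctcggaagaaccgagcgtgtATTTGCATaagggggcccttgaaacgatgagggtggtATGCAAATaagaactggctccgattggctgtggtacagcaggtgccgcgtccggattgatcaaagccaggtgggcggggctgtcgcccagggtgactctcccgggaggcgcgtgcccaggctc
The loose NF-κB letters were found in 4 of the 8 promoters (CD79A, PRDM1, XBP1 and IRF4), where 54.4% of all 35116 promoters of this length hold them. Some of the matches in PRDM1 and all of those in CD79A overlapped one another. The octamer was found in PIM2, with 1 copy on each strand, against 1.63% of all promoters. None of the 8 held the interferon-response-like pair (3.02% of all promoters) or the unfolded protein response core (1.68%). Only these letters were searched, so other forms of site for the same responses, in XBP1 or elsewhere, may be present. These matches describe letters and do not show that a factor binds.

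Among surface and secretory genes, JCHAIN, CD38 and SDC1 were above 0 on every array, and CD79A lay slightly below 0. In all, 3 of the 9 genes with 4 values were above 0 on all 4 arrays, where 11.7% of all features were, and 0 were below 0 on all 4 (13.4% of all features). No gene of the 10 passed on the mean over the days, where 0.337% of 7713 features passed and 0.156% passed as higher (limma adjusted p under 0.05). At an unadjusted p under 0.05 these were JCHAIN, CD38 and SDC1, 3 of 10, against 6.47% of features called higher and 6% called lower at that level. In a bulk culture, more cells of a type and more RNA per cell cannot be told apart.

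CD38 encodes an ectoenzyme that consumes NAD and is a target of antibodies used against myeloma. Among the plasma cell identity genes measured on all 4 arrays it had the steadiest gene average. This average was 0.56, 0.70, 0.76 and 0.74 on days 1 to 4, so that all 4 days lay within a narrow band. Its single probes varied more, with SDs over the days of 0.242 (16308_1), 0.139 (28852_1) and 0.396 (34441_1). The mean was 0.69 ± 0.09 (SD, 4 arrays), a 1.61-fold ratio, with a limma adjusted p of 0.0741. On each array CD38 ranked high among all features, from percentile 91.6 on day 1 to 98.4 on day 3. All 3 of its probes had values on every array. Probe 28852_1 was the highest, at 0.96, 1.19, 1.15 and 0.91 on days 1 to 4. Probe 16308_1 read 0.80, 0.245, 0.66 and 0.46. Probe 34441_1 was the exception on day 1, at -0.071, and read 0.675, 0.47 and 0.84 on days 2 to 4. With each probe as a feature of its own, 28852_1 passed (1.05 ± 0.14, limma adjusted p = 0.0277), where 0.24% of probes were called higher. The gene passed with array weights (0.73, limma adjusted p = 0.0059, 1.89% of features called higher). With days 3 and 4 alone it passed too (0.75, adjusted p = 0.0119, 3.46% called higher). These settings overlap, since the weights, estimated from the same data, were 0.408, 0.45, 3.023 and 1.8 on days 1 to 4. CD38 also passed when values on all 4 arrays were required (adjusted p = 0.0498, 23 of 6427 features called higher). CD38 did not pass when any single array was left out (0.67 to 0.73, adjusted p from 0.154 to 0.295).

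JCHAIN, the joining chain that links IgM and IgA into polymers, had the highest mean of the 10 genes. Its gene average was 1.75, 0.73, 0.735 and 0.79 on days 1 to 4. Day 1 stood apart, and its average includes probe 23859_1, with values of 3.90, 0.18 and 0.015 on days 1, 3 and 4 and none on day 2. The mean over the 4 arrays was 1.00 ± 0.50 (limma adjusted p = 0.123). Of the 2 probes with values on every array, 19370_1 was higher on each later day, at 0.875, 1.085, 1.27 and 1.32, and 34350_1 read 0.48, 0.37, 0.52 and 0.52. Probe 19370_1 passed as a feature of its own (1.14 ± 0.20, limma adjusted p = 0.0277), where 0.24% of probes were called higher. A further probe, 26361_1, had values on days 3 and 4 only (0.965 and 1.30), and 25148_1 had none. The gene passed with its complete probes only (0.805, limma adjusted p = 0.0349, 18 of 6395 features called higher). With the median of its probes it also passed (0.815, adjusted p = 0.0454, 13 of 7713 called higher). The same held for its most complete probe (1.14, adjusted p = 0.038, 9 of 7701 called higher). Further passes came when limma weighted the arrays (0.825, adjusted p = 0.0169, 1.89% called higher) and on days 3 and 4 alone (0.76, adjusted p = 0.0111, 3.46% called higher). These settings overlap. The complete-probe settings leave out probe 23859_1, the median lessens its pull, and the array weights were highest on days 3 and 4. JCHAIN did not pass when any single array was left out (0.75 to 1.09, adjusted p from 0.15 to 0.29).

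SDC1, the heparan sulfate proteoglycan syndecan-1 (CD138) by which plasma cells are commonly identified, had its highest value on day 1. The gene average was 1.15, 0.70, 0.35 and 0.16 on days 1 to 4, with a mean of 0.59 ± 0.44 (limma adjusted p = 0.269). Its order among the features of each array followed, from percentile 99 on day 1 to 70.4 on day 4. Part of this course lies in which probes had values, since probe 17577_1 had values on days 3 and 4 only (-0.035 and -0.085). With the other 2 probes alone the averages were 1.15, 0.70, 0.54 and 0.28. Probe 17780_1 ran at 0.95, 0.70, 0.74 and 0.42, and probe 26979_1 at 1.35, 0.70, 0.335 and 0.13. Both were above 0 throughout and lowest on day 4.

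CD79A, the Igα signalling chain of the B cell receptor, was below 0 on each of the 3 days on which it was measured. Its averages were -0.18, -0.18 and -0.04 on days 1, 3 and 4, and day 2 had no value. The mean was -0.13 ± 0.08 (SD, 3 arrays; limma adjusted p = 0.698). Only probe 28689_1 had a day 1 value (-0.18), followed by -0.41 and -0.10 on days 3 and 4. Probes 16148_1 (0.04 and 0.30) and 24391_1 (-0.18 and -0.33) had values on days 3 and 4 only and differed in sign. No change in CD79A was detectable with these probes.

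**Figure D1:**
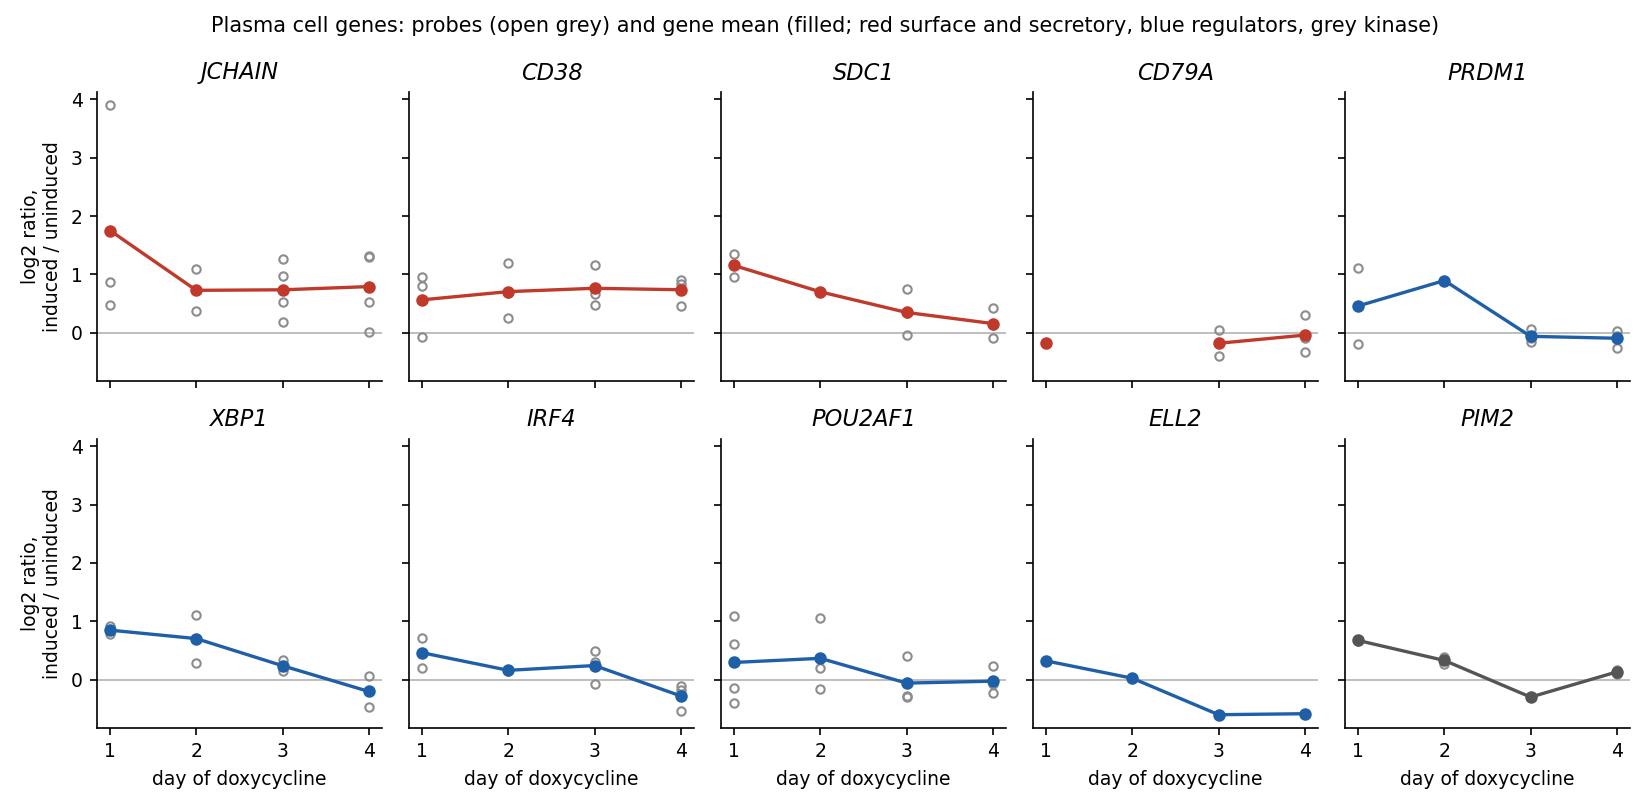
Log2 ratio of induced over uninduced cells (vertical axis) on each day of doxycycline (horizontal axis) for the 10 genes, with open grey circles for probes and filled points joined by lines for the gene average. By gene average, JCHAIN, CD38 and SDC1 stay above 0 on all 4 days, while the 5 regulators lie above 0 on days 1 and 2 and below 0 on day 4.

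By gene average, the 5 regulators were above 0 on days 1 and 2 and below 0 on day 4. ELL2 was barely above 0 on day 2 (0.023), and some probes of PRDM1 and POU2AF1 lay below 0 on day 1. Of the 10 genes 9 were above 0 on day 1, as were 9 of 9 measured on day 2, against 44% and 41.6% of all features on those arrays. On day 3, 5 of 10 were above 0 and on day 4, 4 of 10, against 50.9% and 50.2%. No regulator passed on the mean over the days, with limma adjusted p-values from 0.439 (XBP1) to 0.696 (IRF4).

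XBP1, the transcription factor that expands the secretory apparatus and is activated by splicing of its mRNA, had a gene average of 0.85, 0.70, 0.24 and -0.20 on days 1 to 4. Its rank on the arrays ran from percentile 97.2 on day 1 and 95.1 on day 2 to 79.6 on day 3 and 22.7 on day 4. Both probes had 4 values and were lower on days 3 and 4 than on days 1 and 2 on average. Probe 24504_1 read 0.92, 1.11, 0.14 and 0.07, and probe 29232_1 read 0.78, 0.29, 0.33 and -0.475. The probe annotation does not tell spliced from unspliced XBP1 transcript.

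PRDM1 had a gene average of 0.46, 0.89, -0.06 and -0.10 on days 1 to 4, with a mean of 0.30 ± 0.47. Days 1 and 2 lay above the other days without overlap. Its 3 probes did not give the same course. Probe 29483_1, the only PRDM1 probe with 4 values, read 1.11, 0.89, 0.07 and -0.05. Probe 35211_1 read -0.19 on day 1, -0.16 on day 3 and 0.02 on day 4, and 16371_1 read -0.10 and -0.26 on days 3 and 4. The early height of PRDM1 therefore rests on 1 probe.

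IRF4, the transcription factor on which myeloma cells commonly depend, had small values. Its average was 0.46, 0.16, 0.24 and -0.28 on days 1 to 4, with a mean of 0.145 ± 0.31. Day 4 was the only day below 0. Probe 16614_1 read 0.72, 0.15, 0.31 and -0.115, probe 35916_1 read 0.20, 0.17, 0.48 and -0.18, and 22122_1 read -0.07 and -0.54 on days 3 and 4. Probe 24729_1 had no value on any array. All 3 probes with values were below 0 on day 4.

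POU2AF1, the B cell coactivator that joins octamer-binding factors, had an average of 0.29, 0.365, -0.06 and -0.03 on days 1 to 4 (mean 0.14 ± 0.22). This average hides probes that disagree. Probe 35047_1 read 1.09, 1.055, 0.40 and 0.24, above 0 on every array. Probe 32057_1 read -0.40, -0.16, -0.28 and -0.23, below 0 on every array. Probe 32627_1 was mixed in sign, at 0.62, 0.20, -0.295 and -0.03, and 30441_1 had values on days 1 and 4 only (-0.14 and -0.08). No direction can be given for POU2AF1 over its probes.

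ELL2, the elongation factor that favours the secreted form of immunoglobulin heavy chain mRNA, was measured by 1 probe. It read 0.32, 0.02, -0.60 and -0.585 on days 1 to 4. Among all features it ranked at percentiles 80.7 and 60.4 on days 1 and 2 and at 1.8 and 2.8 on days 3 and 4. Its mean over the days was -0.21 ± 0.46 (limma adjusted p = 0.65). With days 3 and 4 alone it was called lower (-0.59, adjusted p = 0.0246), where 3.12% of 8650 features were called lower. It was the only one of the 10 genes called lower in that setting, and its direction was the opposite with days 1 and 2 alone (0.17, adjusted p = 0.68). Over all alternatives its adjusted p ran from 0.0246 to 0.908.

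PIM2, a serine/threonine kinase that promotes survival of myeloma cells, was read by 2 probes that gave nearly the same values. Probe 38053_1 read 0.67, 0.385, -0.29 and 0.10 on days 1 to 4, and probe 38229_1 read 0.67, 0.27, -0.31 and 0.17. The gene average was 0.67, 0.33, -0.30 and 0.13, with a mean of 0.21 ± 0.405 (limma adjusted p = 0.628). Day 3 was the lowest day on both probes.

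Surface and secretory genes were set against regulators on each array, over the genes with 4 values (JCHAIN, CD38 and SDC1 against the 5 regulators; CD79A had no day 2 value). The surface and secretory average was 1.155, 0.71, 0.61 and 0.56 on days 1 to 4. The regulator average was 0.48, 0.43, -0.05 and -0.24 on the same days. The difference was 0.68, 0.28, 0.66 and 0.80, above 0 on all 4 arrays, with a mean of 0.61 ± 0.225 (SD, 4 arrays). The gap was narrowest on day 2. On days 3 and 4 the regulator average lay below 0, while CD38 and JCHAIN read between 0.735 and 0.79 and SDC1 read 0.35 and 0.16. The difference over these genes is a description and carries no test. With complete probes only it averaged 0.50, and without JCHAIN probe 23859_1 it averaged 0.55. CD79A, left out for its missing value, was below the surface and secretory average on each of its 3 days and below the regulator average on days 1 and 3. With it included, on days 1, 3 and 4, the difference was 0.345, 0.46 and 0.65 (mean 0.49 ± 0.15, SD, 3 arrays; chosen after the values were seen).

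**Figure D2:**
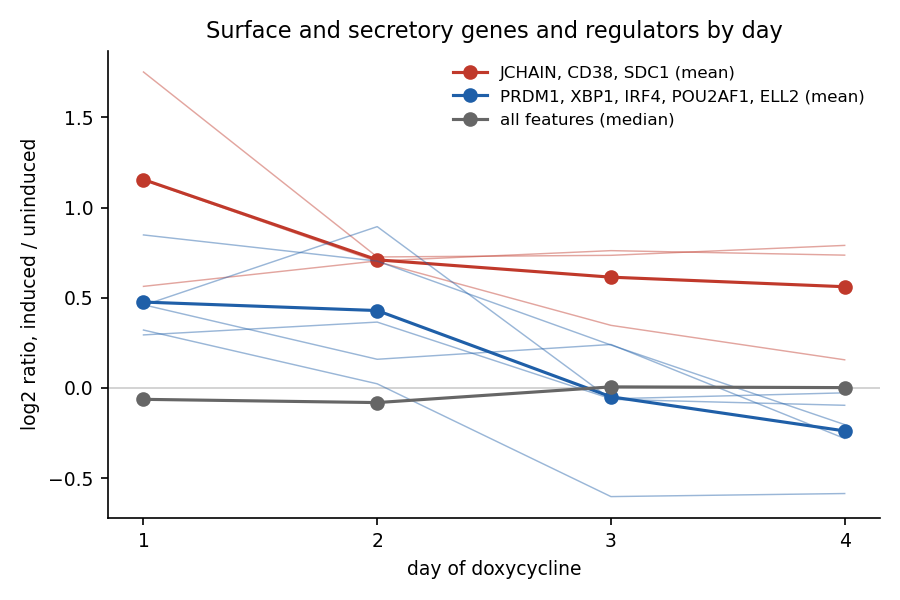
Mean log2 ratio of induced over uninduced cells (vertical axis) by day of doxycycline (horizontal axis) for JCHAIN, CD38 and SDC1 (red), for the 5 regulators (blue) and the median of all features (grey), with thin lines for single genes. The red mean lies above the blue one on every day, by 0.28 on day 2 and 0.80 on day 4.

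The second comparison asked whether the genes changed over the days. No feature passed on the slope (limma, 0 of 6427 called, that is 0%, with 963 at an unadjusted p under 0.05), and so none of the 9 genes with 4 values did. Of those 9 genes 8 had a slope below 0, against 45.8% of all features. At an unadjusted p under 0.05 these were SDC1, XBP1 and ELL2, 3 of 9, where 5.73% of features had a negative slope at that level. The slope of XBP1 was -0.36 ± 0.085 in log2 units per day (error is the SE), and SDC1 and ELL2 had slopes of -0.33 ± 0.083 and -0.33 ± 0.094 (limma adjusted p = 0.304 for each of the 3). CD38 had the only slope above 0, at 0.058 ± 0.081 (limma adjusted p = 0.737). The negative slope of JCHAIN (-0.29 ± 0.14, limma adjusted p = 0.37) rests on probe 23859_1 and turned to 0.13 without it.

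Days 3 and 4 set against days 1 and 2 likewise called no feature with limma (0% of 6427, with 1128 at an unadjusted p under 0.05). In 6 of 9 genes both later days lay below both earlier days (SDC1, PRDM1, XBP1, POU2AF1, ELL2 and PIM2), against 22.4% of all features. CD38 was the only one with both later days above both earlier ones, against 32.1% of features, and JCHAIN joined it without probe 23859_1 (0.675, 0.73, 0.92 and 1.05 on days 1 to 4). No single probe of CD38 had this order, which held for its gene average only. XBP1 averaged 0.018 on days 3 and 4, against 0.78 on days 1 and 2. ELL2 averaged -0.59 on days 3 and 4, against 0.17 on days 1 and 2, and PRDM1 -0.08 on days 3 and 4, against 0.68 on days 1 and 2. These 3 genes and SDC1 had an unadjusted p under 0.05, 4 of 9 against 5.21% of features lower at that level, with a limma adjusted p of 0.23 for XBP1, ELL2 and PRDM1 and of 0.246 for SDC1. The control has 1 description on all 4 arrays, and the labels do not say how long it was cultured, so that induction time and time in culture cannot be told apart.

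**Figure D3:**
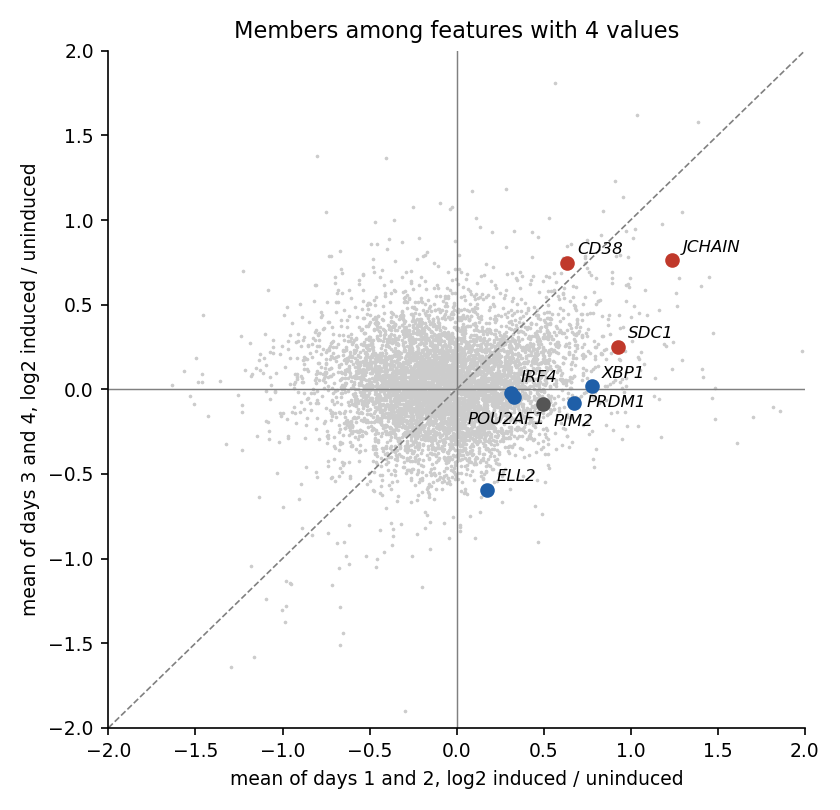
Mean log2 ratio of days 3 and 4 (vertical axis) against that of days 1 and 2 (horizontal axis) for features with 4 values (grey, 6421 drawn and 6 beyond the axes) and for 9 of the 10 genes (red surface and secretory, blue regulators, dark grey PIM2), with the dashed line where the 2 are equal. All of the 9 genes but CD38 lie below the line, and ELL2 alone among them lies well below 0 on days 3 and 4, at -0.59.

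Missing values moved with the day and touch these averages. Of the 30 probes 8, 12, 3 and 2 had no value on days 1 to 4, and 6 had values on days 3 and 4 only. Of the 18 probes with values on all 4 arrays, 13 were on average lower on days 3 and 4 than on days 1 and 2, 8 were above 0 on every array and 1 (POU2AF1 probe 32057_1) was below 0 on every array. Over all features, 11.7% were above 0 on every array and 13.4% below. Shares over all single probes were not computed, and several of these probes belong to the same gene, so the probe counts are description only. With complete probes only, the slope of PRDM1 was -0.43 and that of SDC1 was -0.28. The wider spread of the day 1 and day 2 arrays also moves with the early values. With arrays scaled to the same spread, XBP1 read 0.74, 0.655, 0.30 and -0.24 on days 1 to 4 and ELL2 read 0.30, 0.08, -0.77 and -0.70, an order that scaling could hardly change for ELL2, whose sign differed between early and late days. Both later days then lay below both earlier ones in the same 6 of 9 genes, against 26% of all features. PRDM1 and POU2AF1 were, like ELL2, above 0 on days 1 and 2 and below 0 on days 3 and 4. For these genes scaling could hardly have given another order, so the unchanged count was in part fixed in advance. The part of the spread in these values was not tested.

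Other genes of the plasma cell program came from lists drawn up with earlier results of these data known. Further plasma cell genes had a median of 0.05 over 22 measured genes, 13 of them above 0, while the median over all features was -0.03 with 44% above 0. None passed over all features, while 6 of 22 were higher and 0 lower at an unadjusted p under 0.05, against 6.47% of all features higher and 6% lower. The largest means were those of CD59, a membrane inhibitor of complement, at 0.575 ± 0.15, SSR4, a subunit of the translocon-associated protein complex, at 0.56 ± 0.13, the bone morphogenetic protein BMP6 at 0.54 ± 0.29 and the BAFF and APRIL receptor TNFRSF17 at 0.50 ± 0.30 (limma adjusted p from 0.137 to 0.251). All 4 were above 0 on every array, where 11.7% of all features were. They were picked for the size of their means, which favours such a pattern.

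Genes of the secretory pathway, many of them XBP1 targets, had a median of 0.30, with 28 of 31 above 0. None was called, while 13 were higher and 0 lower at an unadjusted p under 0.05, against 6.47% of all features higher at that level. Their median per day was 0.49, 0.41, 0.14 and 0.15 on days 1 to 4, and 25 of 30 slopes were below 0, against 45.8% of all features. As for XBP1, the medians of days 1 and 2 lay above those of days 3 and 4. PDIA4, a disulfide isomerase, read 1.22, 1.11, 0.24 and 0.70, and ERP44, which retains unassembled antibody chains, read 1.07, 0.55, 0.34 and 0.71. The signal peptidase subunit SPCS3 ran the other way, at 0.31, 0.555, 0.97 and 0.89. SSR3 had the largest mean (0.83 ± 0.80, SD, 3 arrays), with 0.07, 1.67 and 0.75 on days 1, 3 and 4.

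Only 3 immunoglobulin genes had a named probe, and 0 passed, with 1 higher at an unadjusted p under 0.05. IGHM read 0.46, 0.42, 0.06 and 0.31 on days 1 to 4, above 0 throughout. IGHD had a mean of -0.26 ± 0.14 and IGHA1 of 0.11 ± 0.27. Probes for immunoglobulin chains can cross-hybridise with related chains.

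B cell genes, many but not all of which are silenced by Blimp-1 and in the plasma cell state, lay the other way round in time. On days 1 and 2 their medians were -0.23 and -0.15, on days 3 and 4 they were 0.07 and 0.08, and 30 of 36 slopes were above 0, against 54.2% of all features. The medians of all features with 4 values moved the same way by less, at -0.05, -0.08, 0.02 and 0.01 on days 1 to 4. Over the days the median was -0.06, with 24 of 38 genes below 0, near the share of all features (56%, median -0.03). None was called, with 1 higher and 1 lower at an unadjusted p under 0.05. CD79B, the partner of CD79A in the receptor, had a mean of 0.445 ± 0.22 and lay above 0 on every array (0.64, 0.625, 0.33 and 0.19), unlike CD79A. VPREB3 had a mean of 0.31 ± 0.155 (SD, 3 arrays) and the transcription factor ETS1 one of -0.285 ± 0.083. ID3 (-0.51 ± 1.55) rests on day 2, at -2.79.

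**Figure D4:**
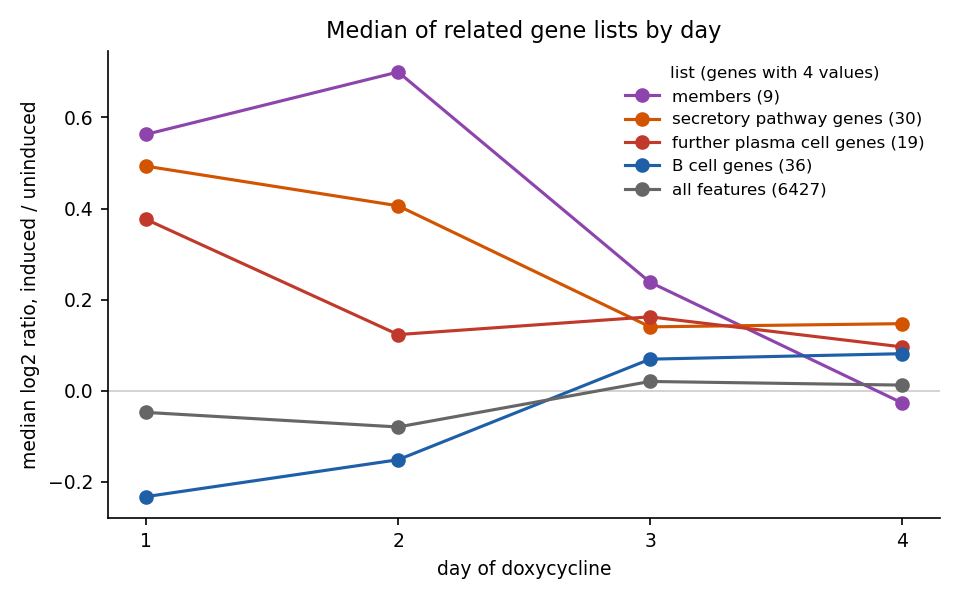
Median log2 ratio of induced over uninduced cells (vertical axis) by day of doxycycline (horizontal axis) for the 9 plasma cell identity genes with 4 values, secretory pathway genes, further plasma cell genes, B cell genes and all features. The medians of the identity genes (0.56, 0.70, 0.24 and -0.03) and the secretory genes are higher on days 1 and 2, and that of the B cell genes (-0.23, -0.15, 0.07 and 0.08) is higher on days 3 and 4.

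EJM is a cell line and not a marrow culture. Of the genes that mark other cell types of the marrow, 1 passed. Of 9 T and NK cell markers 0 were called, with 1 higher and 2 lower at an unadjusted p under 0.05 and a median of 0.05. Among them PRF1 had a mean of -0.48 ± 0.33, CD5 of -0.42 ± 0.22, CD3D of 0.36 ± 0.415 and CD4 of 0.36 ± 0.21. Of 6 myeloid and 3 stromal markers 0 were called and 0 had an unadjusted p under 0.05, with medians of 0.03 and 0.10. CD14 had a mean of 0.37 ± 0.46, AIF1 of -0.28 ± 0.30, CSF1R of -0.21 ± 0.03 and ITGAM of 0.21 ± 0.23, while FN1 had one of -0.185 ± 0.14, VIM of 0.14 ± 0.24 and COL3A1 of 0.10 ± 0.12. Of 2 red cell markers, β-globin (HBB) was called higher (0.85 ± 0.09, limma adjusted p = 0.0381) and HBA1 was not (-0.14 ± 0.42). HBB was, like CD38, steady over the days at 0.85, 0.98, 0.80 and 0.78. Its part in the values of the plasma cell genes was not tested.

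The genes with the pattern most like CD38 over the 4 days, by the root mean square difference of the log2 ratios among 3760 other named genes, were the chemokine gene CCL3 (0.03), GLIPR1 (0.106) and GOLM1 (0.109). CCL3 read 0.57, 0.66, 0.79 and 0.76. For JCHAIN the nearest were LSM14B (0.26), H2BC12 (0.33) and RND3 (0.34), all with their highest value on day 1, between 1.18 and 1.32. These distances were larger than those from CD38, and all 3 lay below its day 1 value of 1.75. That value rests on probe 23859_1, and without it the nearest were CTSA (0.118), FTL (0.163) and CCL3 (0.17), none of them among the nearest 3 with it.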

How the data were processed

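The authors deposited 1 table of log ratios from 4 two-colour arrays, read here as log2; the background correction, normalization, spot filter, log base and meaning of missing values are not stated in the labels or the file. Probes were named through the platform annotation (10169 probes with 1 symbol, 4 with several, 5073 unnamed here), and symbols were updated by Entrez identifier with a RefSeq table (GRCh38.p14; 10128 probes matched). Probes of a gene were averaged per array. The mean against 0 was tested for 7713 features with values on at least 3 arrays, and the slope on day for 6427 features with 4 values, with limma 3.58.1 (R 4.3.3; linear fit with empirical Bayes moderation, two-sided tests, Benjamini-Hochberg over all features, threshold 0.05). Errors with means are SDs over arrays. The fits were tested on simulated data. The arrays are different days with 1 array each, no label says that the cultures were separate, and p-values therefore reflect the spread between these arrays alone, which may be technical; a dye bias or an effect of doxycycline itself stays in the mean. The number of arrays limits the precision. The genes, related lists and tests were chosen with earlier results of these data known. Named genes were the 10 genes with every probe, NFKBIA and TNFAIP3, list genes that passed or had the 4 largest absolute means, and the 3 nearest patterns to the 2 genes with the largest means. Alternatives changed the combination of probes, scaling, naming, missing value filter, array weights, moderation and arrays used.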

Additional observations from a re-analysis of the deposited data

Results flagged for a closer look

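JCHAIN stood apart on day 1, at 1.75, while the other 3 days lay between 0.726 and 0.79. The gap to the nearest day was 0.937 of the whole range, above Dixon's critical value at the 95% level. Chance flags about 1 in 20 such sets, and 28 overlapping sets of 4 values (genes, their probes and the difference between surface and regulator genes) were checked, of which 1 was marked. The day 1 value includes probe 23859_1 at 3.90, and with complete probes only JCHAIN read 0.675 on day 1.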

How the results depend on the processing

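No paired analysis was possible because each array already holds both kinds of cells and each day has 1 array. The number of features called on the mean (26) was 3 to 5 without single arrays, 1 with days 1 and 2 alone, 569 with days 3 and 4 alone, 291 with array weights, 42 when values on all 4 arrays were required and 55 with each probe a feature. On the slope 0 were called in every alternative run, with 963 features at an unadjusted p under 0.05. The difference between surface and regulator genes stayed above 0, from 0.48 (days 1 and 2 alone) to 0.73 (days 3 and 4 alone), and from 0.541 to 0.714 without single arrays. This difference was above 0 on every array, so its sign was fixed in advance wherever arrays were only left out. Genes near 0 changed sign on the mean with days 3 and 4 alone (PRDM1 -0.08, IRF4 -0.019, POU2AF1 -0.043, PIM2 -0.084), with days 1 and 2 alone (ELL2 0.172), with array weights (PIM2 -0.043) and when only the gene's most complete probe was kept (POU2AF1 -0.269). Slopes changed sign with that probe for JCHAIN (0.152), CD38 (-0.061) and POU2AF1 (0.039). The slope of JCHAIN also did so with the median of the probes (0.014), complete probes (0.091), without probe 23859_1 (0.131, chosen after seeing the data) and without the day 1 array (0.032; -0.508 to 0.032 over single arrays left out). JCHAIN and CD38 kept a mean above 0 in all 17 alternatives, from 0.75 to 1.24 and from 0.54 to 0.75. Both gene averages were above 0 on every array, so alternatives that drop or weight arrays could not have turned the sign. No intensities were used, so limits from dim spots are unknown.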
